A study of Sus scrofa domesticus with 4 samples.

Results

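FABP5, FABP3 and FABP4 encode fatty acid binding proteins, and they are 3 of the 3029 genes named on a porcine array, measured by 14 of its 43603 probes in endometrium kept in culture with or without orexin B. The probes were taken by name: a probe belongs here if its RefSeq accession is that of 1 of the 3 genes, which gave 4 probes for FABP5, 3 for FABP3 and 7 for FABP4. The group was chosen by the measured orexin B ratio of FABP5, which was among the lower ones of the series, and FABP3 and FABP4 came in as its relatives. That ratio, for FABP5 and its relatives alike, is therefore given as a description and without a test. The data are 4 two-colour arrays, each of which pairs RNA from explants exposed for 24 h to orexin B, a hypothalamic neuropeptide, at 10 nM with RNA from explants left untreated, in different dyes. The explants were slices of about 100 mg, 3 mm thick, from the mid-horn endometrium of 4 mature gilts (Large White x Polish Landrace, 7 to 8 months old and 120 to 130 kg) on days 15 to 16 of pregnancy. Both groups had the same 2 h of preculture in medium M199, and the comparison asks how orexin B acts on gene expression in the endometrium of early pregnancy. The labels name 4 separate experiments in duplicate cultures but do not say which animal is on which array. Arrays therefore serve as replicates here, and their spread may be partly technical.

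Fatty acid binding proteins are small cytosolic proteins that hold long-chain fatty acids in a barrel-shaped pocket and carry them between membranes, enzymes and the nucleus. FABP5, the epidermal form, is found in epithelia, endothelium and macrophages and is known for bringing ligands to the nuclear receptor PPARD. FABP3 is the heart and muscle form, which supplies fatty acids for oxidation, and FABP4 is the form of adipocytes, macrophages and capillary endothelium. In the annotation of assembly Sscrofa11.1, FABP4, PMP2 (the myelin form) and FABP5 follow each other along the same chromosome, with a long non-coding RNA gene between PMP2 and FABP5, while FABP3 lies on another chromosome.

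By the dye labels of the single arrays, Cy5 marked treated RNA on arrays 1 and 3 and untreated RNA on arrays 2 and 4. The authors' deposited ratios of treated over untreated RNA follow these per-array labels, as do the values here. A labelling text shared by all samples can be read as treated RNA in Cy5 throughout, and under that reading many of the values below change in size or sign. Such values are given for FABP5, for the genes and marker lists set beside it, and for other genes whose sign turned. Arrays 1, 3 and 4 share a slide and a scan day, and array 2 is from another slide scanned on another day. Of 43803 spots, 27.8% to 36.2% were well above background in Cy3 on the 4 arrays, while in Cy5 the share was 46.8% on array 2 and 82.4% to 86.7% on the other arrays. The number of arrays limits the precision. Among defining markers of the tissue, EPCAM of epithelium, DCN of fibroblasts and PECAM1 of endothelium each had a probe well above background in 8 of 8 channels.

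FABP5 and FABP3 RNA was measured in every channel, whereas FABP4 was not. All 4 FABP5 probes were well above background in 16 of 16 Cy3 readings and 16 of 16 Cy5 readings. In Cy3 their raw median spot signal ran from 2557 to 9961.5 scanner units, over a local background of 32.5 to 63. In Cy5 it ran from 5776.5 to 22739, over a local background of 39 to 59.5. Within the Cy5 channel, where raw signals of treated and untreated RNA come from different arrays, treated RNA gave 5776.5 to 13608 units and untreated RNA 14148 to 22739. In Cy3 the FABP5 values were 2557 to 7132 for treated and 3083 to 9961.5 for untreated RNA. How often such ranges lie apart among all probes was not computed for raw signals. As the contrast also led to the choice of FABP5, nothing is read from these ranges. The 3 FABP3 probes were likewise well above background in 12 of 12 readings of each dye. Their Cy3 signal was 1207 to 4582 in treated and 1075 to 3522 in untreated RNA. Their Cy5 signal was 11953.5 to 41212 in treated and 1048 to 14878 in untreated RNA, so ranges pooled over the probes overlapped in both channels. Probe by probe, each FABP3 probe had both treated Cy5 signals above both untreated ones. These were 11953.5 and 12512 against 2621 and 1048 for A_72_P440921, and 41212 and 31955 against 14878 and 3923 for A_72_P442936. For A_72_P442944 they were 26226 and 22834 against 10304.5 and 2115.5. These signals too come from different arrays, and nothing is read from them.

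**Figure D1:**
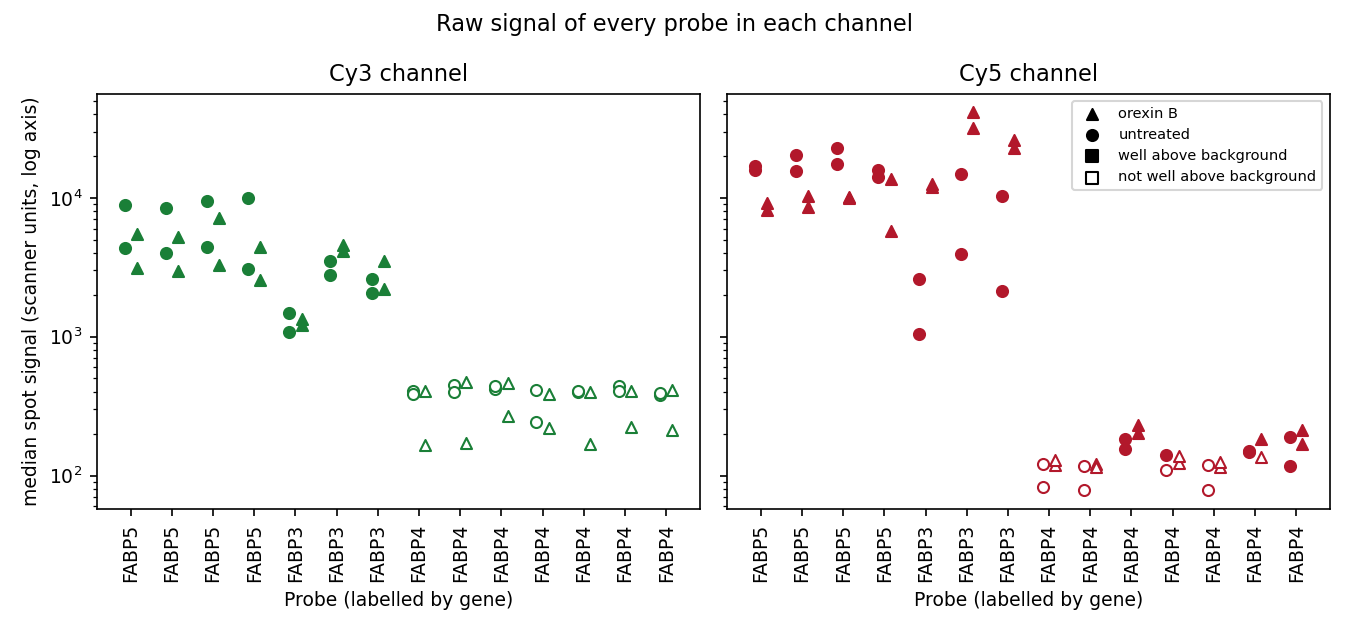
Raw median spot signal (scanner units, log axis) of each of the 14 probes on the 4 arrays, with Cy3 on the left and Cy5 on the right; triangles are treated and circles untreated RNA, and open symbols were not well above background. FABP5 and FABP3 spots are all filled, while FABP4 is open in all 28 Cy3 readings and filled in 12 of 28 Cy5 readings.

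FABP4 stayed below the detection call in Cy3 throughout. Its 7 probes were well above background in 0 of 28 Cy3 readings and 12 of 28 Cy5 readings, of which 5 were of treated and 7 of untreated RNA. Raw FABP4 signals were 166.5 to 472 units in Cy3 and 78 to 231 units in Cy5. Probes A_72_P576219 and A_72_P673571 were above background in Cy5 on 4 of 4 arrays, A_72_P616844 on 3 and A_72_P598018 on 1, and the other 3 probes on none. No FABP4 probe entered the test across probes, which asks for a signal well above background on all 4 arrays in at least 1 condition. All 4 FABP5 and all 3 FABP3 probes entered it, among 13782 probes.

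FABP5 RNA was lower in orexin B-treated than in untreated explants on each of the 4 arrays. The mean of its 4 probes was a log2 ratio of treated over untreated of -1.01 on array 1, -0.80 on array 2, -2.25 on array 3 and -1.63 on array 4. The difference was largest on array 3 and smallest on array 2. Over the arrays this gave -1.42 ± 0.66 (SD, n = 4), which is 2.68 times lower. A ratio below 0 on 4 of 4 arrays was seen for 3.67% of the tested probes with 4 values, and since this ratio led to the choice of FABP5, nothing is read from it. If every array is read as treated in Cy5, the mean is -0.21, because arrays 2 and 4 then change sign.

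The FABP5 probes gave nearly the same ratio as each other. A_72_P165231 stood at -1.03, -0.71, -2.50 and -1.50 on arrays 1 to 4. A_72_P572769 stood at -0.99, -0.78, -2.12 and -1.81. A_72_P623937 stood at -0.97, -0.80, -2.33 and -1.47. In each of these probes array 3 was the lowest and array 2 the highest. A_72_P631385, with -1.05, -0.89, -2.04 and -1.73, kept this order of the arrays as well. The probe means lay between -1.44 and -1.39, a much narrower band than the arrays. Within an array the 4 probes spanned 0.08 on array 1, 0.18 on array 2, 0.46 on array 3 and 0.33 on array 4, and their SD was 0.04 to 0.21. Between arrays the SD of single probes was 0.55 to 0.78, so the spread of FABP5 came mainly from the arrays. The probes are readings of the same RNA samples and not further replicates.

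In limma's fit with a treatment and a dye term, the FABP5 probes had ratios of -1.44 ± 0.28 (A_72_P165231; moderated SE, n = 4), -1.42 ± 0.26 (A_72_P572769), -1.39 ± 0.26 (A_72_P623937) and -1.43 ± 0.24 (A_72_P631385). In the authors' deposited table, FABP5 stood at -1.11, -0.71, -2.20 and -1.69 on arrays 1 to 4 as the mean of its probes. Leaving out an array moved the fitted FABP5 mean to between -1.73 (without array 1) and -1.11 (without array 3), and on the slide of arrays 1, 3 and 4 alone it was -1.63.

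**Figure D2:**
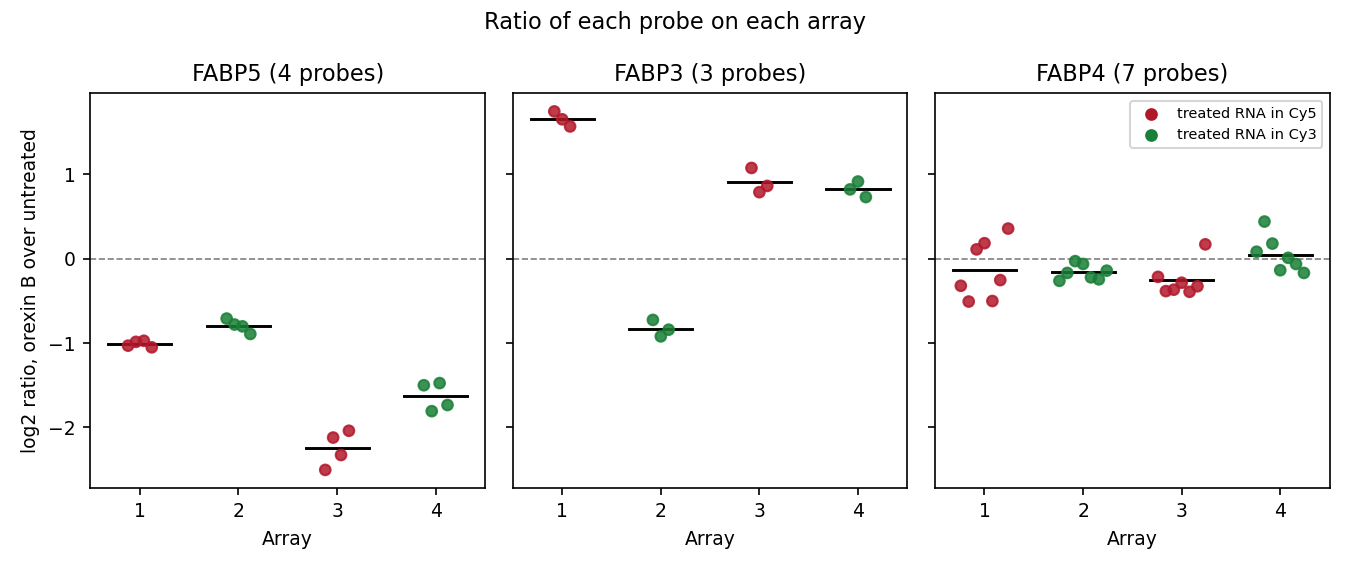
Log2 ratio of treated over untreated RNA for each probe (points) on each array, with the mean of a gene's probes as a bar and the dye of the treated RNA as colour. All 16 FABP5 points lie below 0, FABP3 lies above 0 on arrays 1, 3 and 4 and below it on array 2, and FABP4, which was mostly not well above background, lies around 0.

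The levels behind these ratios were compared after the arrays were brought to a common signal distribution. Untreated FABP5 had a log2 level, as the mean of its probes, of 12.86, 13.61, 14.38 and 13.65 on arrays 1 to 4. Treated FABP5 had 11.85, 12.81, 12.13 and 12.02. The treated values of the gene lay below all untreated values, although the highest treated (array 2) and the lowest untreated value (array 1) nearly met. Probe by probe, 2 of the 4 FABP5 probes had every treated value below every untreated one, a pattern found in 0.192% of tested probes, and A_72_P623937 and A_72_P631385 overlapped. This pattern is part of the contrast that singled out FABP5 and is not further support for it. In Cy5 alone, treated FABP5 stood at 11.85 and 12.13 and untreated FABP5 at 13.61 and 13.65. In Cy3 alone, treated FABP5 stood at 12.02 and 12.81 and untreated FABP5 at 12.86 and 14.38. The large FABP5 ratio of array 3 went with the highest untreated level, while its treated level was within the range of the other arrays.

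**Figure D3:**
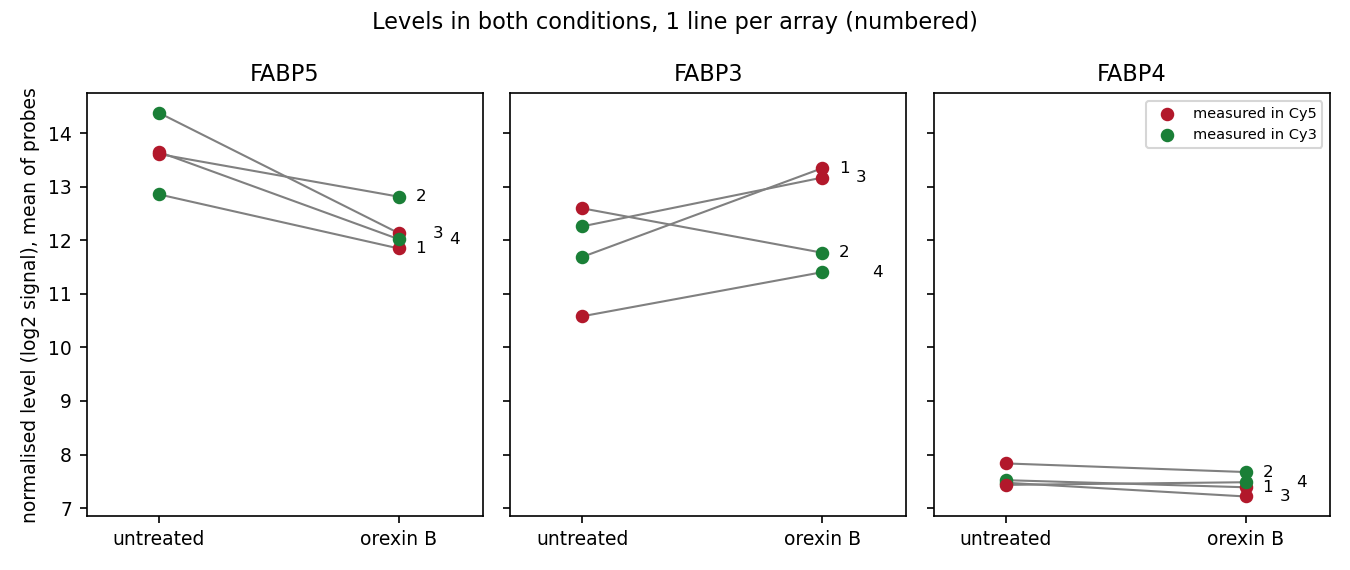
Normalised log2 level of FABP5, FABP3 and FABP4 (mean of the gene's probes) in untreated and treated RNA, with a line for each of the 4 arrays and the dye as colour. FABP5 runs down on every array, FABP3 runs up on 3 and down on array 2, and FABP4 levels were largely below the detection call.

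FABP3 RNA was higher in treated explants on arrays 1, 3 and 4 and lower on array 2. The mean of its 3 probes was 1.66 on array 1, -0.83 on array 2, 0.91 on array 3 and 0.82 on array 4. This gave 0.64 ± 1.05 (SD, n = 4), a spread larger than the mean, and that SD includes the part of the ratio that went with the dye. In limma's fit, which takes the dye term out, the FABP3 probes had ratios of 0.73 ± 0.28 (A_72_P440921; moderated SE, n = 4), 0.61 ± 0.32 (A_72_P442936) and 0.58 ± 0.28 (A_72_P442944). A_72_P440921 stood at 1.75, -0.73, 1.08 and 0.82 on arrays 1 to 4. A_72_P442936 stood at 1.65, -0.92, 0.79 and 0.92. A_72_P442944 stood at 1.57, -0.84, 0.86 and 0.73. Every FABP3 probe was highest on array 1 and below 0 on array 2 only, and the probes spanned 0.18 to 0.29 within an array. All 3 probes thus gave the same contrast between array 2 and the other arrays. On the slide of arrays 1, 3 and 4 the fitted FABP3 mean was 1.05, and leaving out each array gave 0.23 (without array 4) to 1.05 (without array 2). A ratio above 0 on 4 of 4 arrays was seen for 3.74% of tested probes and for none of the 3 FABP3 probes. FABP3 levels overlapped between conditions, at 13.34, 11.77, 13.17 and 11.40 in treated and 11.69, 12.60, 12.26 and 10.58 in untreated RNA on arrays 1 to 4.

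FABP3 and FABP5 differed from each other on 3 of the 4 arrays. The FABP3 ratio minus the FABP5 ratio was 2.67 on array 1, 3.16 on array 3 and 2.45 on array 4. On array 2 it was -0.03, so there both genes were lower in treated RNA by about the same amount. The mean difference was 2.06 ± 1.43 (SD, n = 4). It was not tested, because FABP5 was chosen for its ratio.

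FABP4 gave ratios near 0 that rest on signals at the detection limit. The mean of its 7 probes was -0.13, -0.16, -0.26 and 0.05 on arrays 1 to 4, or -0.13 ± 0.13 (SD, n = 4). Of 28 single FABP4 values 20 were below 0, and they ran from -0.51 to 0.44. The probes disagreed more than those of FABP5 and spanned 0.87 on array 1 and 0.23 on array 2. In the authors' deposited table the FABP4 means were -0.41, -0.32, -1.07 and 0.79, and with median centring in place of loess the fitted mean was -0.40, both farther from 0 than the values here. No fold change of FABP4 is given, since no probe was well above background in Cy3 in either condition.

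The dye term of the fit was not used to choose the genes and could be tested. It is the part of the log2 ratio of Cy5 over Cy3 that stayed the same whichever RNA was in Cy5. The 4 FABP5 probes had dye terms of -0.33 to -0.12 (moderated SE 0.24 to 0.28), with limma adjusted p-values of 0.595 to 0.836. The 3 FABP3 probes had dye terms of 0.61 to 0.68 (SE 0.28 to 0.32), as large as their treatment term, with limma adjusted p-values of 0.339 to 0.412. Limma called 0 of 4 FABP5 and 0 of 3 FABP3 probes for dye, against 0% of 13780 probes. Before adjustment, limma put A_72_P440921 of FABP3 just past the threshold of 0.05 and no FABP5 probe, against 14.2% of all probes. By orientation, the FABP3 ratio was 1.28 as the mean of the arrays with treated RNA in Cy5 and -0.003 as the mean of those with treated RNA in Cy3. For FABP5 those means were -1.63 and -1.21. The FABP3 mean of -0.003 joins -0.83 on array 2 and 0.82 on array 4. Array 2 is from another slide and scan day, and its part in the FABP3 dye term was not tested.

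Other intracellular lipid binding proteins were mostly below the limit of the test. Of 12 such genes, 10 had a probe and 1 was tested, CRABP1, which limma did not call. For orexin B, limma's calls over the whole array came to 0% in the higher and 0% in the lower direction, with 495 of 13782 probes at an unadjusted p under 0.05. Without array 2 limma called 15 probes. CRABP1, a carrier of retinoic acid, stood at 0.16, -0.39, 0.11 and -0.27 on arrays 1 to 4, or -0.10 ± 0.17 in the fit (limma adjusted p = 0.999), with both signs among the arrays. FABP6, the ileal carrier of bile acids, was above background in Cy5 on 4 of 4 arrays but in Cy3 on 1 and 2 of 4 arrays for its 2 probes, and was not tested. Its ratios were -0.47, -0.70, -0.94 and -0.81 for A_72_P115941 on arrays 1 to 4. The other FABP6 probe, A_72_P176396, stood at -0.61, -0.48, -1.74 and 0.01. PMP2, which lies next to FABP4 and FABP5 in the genome, had 3 probes with ratios of 0.06, -0.22 and 0.07 and was above background in 0 Cy3 readings. FABP1, FABP2 and FABP7, the liver, intestinal and brain forms, CRABP2, RBP2 and RBP7 were above background in 0 Cy3 readings too, and RBP5 in 2 for 1 of its 2 probes. In Cy5 the best probes of these genes and of PMP2 were above background on 1 to 3 arrays.

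The genes whose 4 ratios lay closest to those of FABP5 are named here by that closeness alone. Closeness was measured as the root mean square difference of the 4 array ratios over 1602 tested genes with values on all arrays, whose median was 1.56. BCL2A1, which protects cells from apoptosis, came closest at 0.34, with ratios of -1.32, -0.63, -1.69 and -1.46. LOC396781, which the annotation also lists as the immunoglobulin heavy chain IGHG, followed at 0.48 with -1.21, -0.53, -1.46 and -1.19. GP91-PHOX, which makes superoxide in phagocytes, was at 0.53 with -1.01, -0.42, -1.26 and -1.46. These 3 genes had array 2 nearest to 0, as FABP5 had. CCL5, a T cell chemokine, was at 0.66 with -0.73, -0.13, -1.77 and -0.63, and it too had array 2 nearest to 0. CCR7, the chemokine receptor that guides leukocytes to lymph nodes, was at 0.67 with -0.47, -0.50, -1.66 and -0.59. A gene can lie this close only if it too was clearly lower, so the sign of these ratios is no separate result, and 4 arrays are too few for a correlation. With all arrays read as treated in Cy5, the fitted ratio of BCL2A1 went from -1.27 to -0.23, of LOC396781 from -1.10 to -0.24, of GP91-PHOX from -1.04 to -0.098, of CCL5 from -0.81 to -0.44 and of CCR7 from -0.81 to -0.26.

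**Figure D4:**
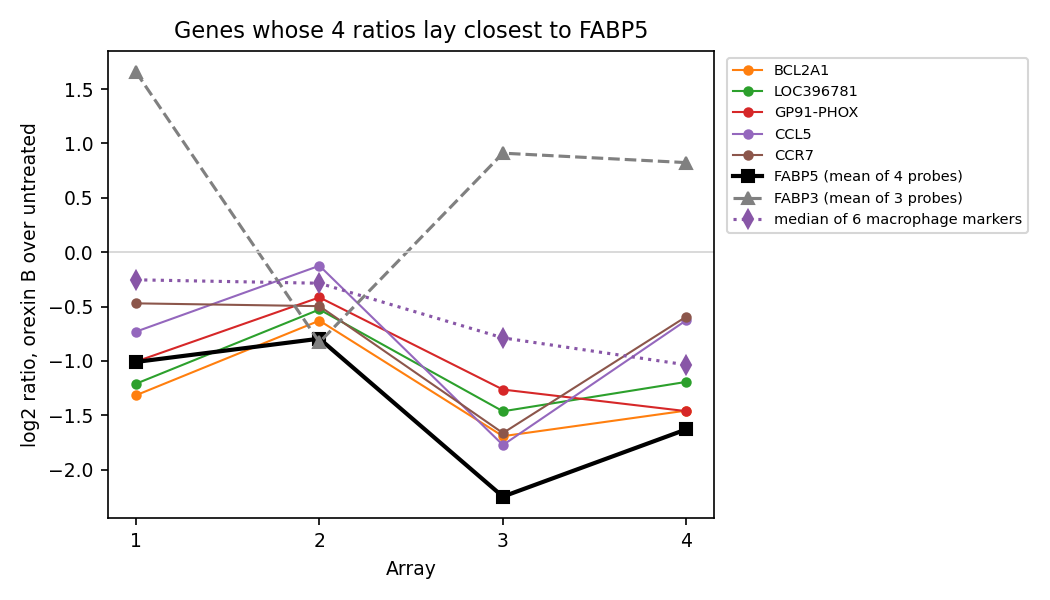
Log2 ratio of treated over untreated RNA on each array for FABP5, the 5 genes closest to it, FABP3 and the median of 6 macrophage markers; lines only join the values of a gene, as arrays have no order. The close genes and FABP5 lie below 0 on all arrays, and FABP3 meets FABP5 on array 2 alone. GP91-PHOX, among the close genes, is also a macrophage marker in that median.

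Markers of cells that carry these proteins were measured beside them, and in explants fewer cells of a type and less RNA per cell cannot be told apart. Of 10 macrophage and myeloid markers, 7 had a probe and 6 were tested, with 5 lower and 1 higher (CD163 at 0.18, named after its value was seen). Their median ratio was -0.51, against 0.02 for all tested probes, and -0.25, -0.29, -0.79 and -1.04 on arrays 1 to 4. Their summed level was 6546 to 11032 signal units in treated and 7632 to 20523 in untreated RNA, and each of the 7 was above background in some channel. AIF1 of macrophages stood at -0.59 ± 0.26 and the myeloid adaptor TYROBP at -0.33 ± 0.23. Without array 4 they stood at -0.24 and -0.11, without array 2 at -0.94 and -0.56, and without array 3 TYROBP stood at -0.17. The 6 tested macrophage markers include GP91-PHOX (-1.04), named above for its closeness to FABP5, so list and close genes are not separate observations. The part of these markers in the FABP5 ratio was not tested. With all arrays read as treated in Cy5 the macrophage median was 0.12.

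Endothelial and epithelial markers, the other cells known for FABP5, had smaller medians than the macrophage markers in the fit to all arrays. All 5 endothelial markers with a probe, of 8, were tested, with a median of -0.08 (4 lower, 1 higher). Their medians by array were 0.32, -0.22, -0.38 and -0.24. PECAM1 stood at -0.34 ± 0.27 and CDH5 at -0.39 ± 0.17, and the summed level was 22772 to 35191 in treated and 22187 to 39224 in untreated RNA. All 5 epithelial markers with a probe, of 10, were tested, with a median of -0.26 (4 lower, 1 higher). By array these medians were -0.77, -0.65, -0.43 and 0.61. CLDN3, a tight junction protein, stood at -0.54 ± 0.21 and EPCAM at -0.26 ± 0.24, with a summed level of 51094 to 100025 in treated and 63423 to 136098 in untreated RNA. The endothelial median was -0.038 and the epithelial median -0.15 with all arrays read as treated in Cy5. The part of these markers in the FABP5 ratio was not tested.

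Adipocyte and muscle markers bear on FABP4 and FABP3. All 8 adipocyte markers had a probe, and the 2 tested were LIPE (-0.11 ± 0.20) and PPARG (0.05 ± 0.22), which other cells also express. The adipocyte-defining ADIPOQ, LEP, PLIN1 and CIDEC were above background in 0 Cy3 readings, and CIDEC in no channel at all. In Cy5 the best probes of ADIPOQ and LEP were above background on 3 arrays and that of PLIN1 on 1. Of 10 muscle markers 6 had a probe and 4 were tested, with a median of -0.14 in the fit and, by array, of 0.80, -0.69, 0.03 and -0.52. Their summed level was 16885 to 36898 in treated and 20067 to 33663 in untreated RNA, with ACTA2 at -0.06 ± 0.19 and MYL9 at 0.11 ± 0.18. The muscle list was highest on array 1 and lowest on array 2, as FABP3 was, but below 0 on array 4, where FABP3 was at 0.82. With all arrays read as treated in Cy5 the muscle median was 0.58, and without array 3 it was 0.035. The striated muscle genes CKM and TNNC1 were above background in 0 Cy3 readings. In Cy5 the best probe of CKM was above background on 4 arrays and that of TNNC1 on 1. The part of these markers in the FABP3 ratio was not tested.

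The remaining marker lists were measured in the same way. The 3 tested fibroblast markers, of 4 with a probe, had a median of 0.20, with DCN at 0.23 ± 0.19 and COL1A2 at 0.17 ± 0.20. The fibroblast median was 0.40 with all arrays read as treated in Cy5, with DCN at 0.24 and COL1A2 at 0.73. The 3 tested T and NK cell markers, of 7 with a probe, had a median of -0.27, with the granule protease GZMB at -0.38 ± 0.17 and NKG7 at -0.23 ± 0.18. With all arrays read as treated in Cy5 the T and NK cell median was 0.46. The 4 tested trophoblast markers, of 7 with a probe, had a median of -0.03. Among them TFAP2C, which regulates trophoblast genes, stood at 1.14 ± 0.19 (0.64 with all arrays read as treated in Cy5) and the aromatase gene CYP19A1 at -0.15 ± 0.20. Limma called 0 genes of any marker list at its adjusted threshold, and of the 32 tested entries 4 had an unadjusted p under 0.05, against 3.59% of all tested probes; GP91-PHOX, already named for its closeness to FABP5, is among them.

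The wider fatty acid pathway showed list medians between -0.13 and 0.20. Limma called 0 genes of any of the lists below in either direction, as it called 0% of all probes. Of 10 tested genes of fatty acid uptake and activation 4 stood higher and 6 lower, with a median of -0.02. In it ACBD3, a Golgi protein with an acyl-CoA binding domain, stood at -0.55 ± 0.17, and the acyl-CoA synthetases ACSL1 and ACSL4 at -0.34 ± 0.17 and -0.29 ± 0.18. SLC27A2, a transporter and synthetase for very long fatty acids, stood at 0.71 ± 0.38 and owed this to array 2, at 2.56, against -0.02 to 0.17 on the others. The transporter gene CD36 and the lipase gene LPL, which releases fatty acids from lipoproteins, were not tested.

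The list of nuclear receptors and their partners had a median near 0, and PPARG was the only PPAR receptor tested in it. Of 6 tested receptors and partners 3 stood higher and 3 lower, with a median of -0.0085. PPARG, the receptor served by FABP4, stood at 0.05 ± 0.22. The coactivators PPARGC1A and NCOA1 stood at -0.20 ± 0.18 and -0.06 ± 0.21, and the oxysterol receptor NR1H3 at 0.027 ± 0.20. PPARD, the receptor served by FABP5, was above background in Cy5 on 4 arrays and in Cy3 on 1 for its best probe. Neither PPARD nor PPARA was tested. Of 11 tested genes that PPAR receptors are known to induce 4 stood higher and 7 lower, with a median of -0.13. That median was 0.089 with all arrays read as treated in Cy5, 0.064 with median centring and 0.098 with no filter on detection, so its sign depends on the setting. UCP2, a mitochondrial carrier, stood at -0.50 ± 0.21, PDK4, which turns pyruvate away from oxidation, at -0.59 ± 0.35, the acyl-CoA dehydrogenase gene ACADL at -0.26 ± 0.20 and the fatty acid hydroxylase gene CYP4A24 at -0.19 ± 0.17. PDK4 stood at -2.64 on array 1 and between -0.44 and 0.73 on the others, and without array 1 it was at -0.044.

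Storage, oxidation and synthesis genes showed medians close to that of all probes, except for synthesis. Of 6 tested lipid droplet and lipolysis genes 2 stood higher and 4 lower (median -0.08). Among these the lysosomal lipase LIPA stood at -0.42 ± 0.18, the lipase activator ABHD5 at -0.32 ± 0.18 and the droplet protein PLIN2 at -0.06 ± 0.19, beside LIPE given above. Of 14 tested oxidation genes 7 stood higher and 7 lower (median 0.01), with the dehydrogenase HADH at 0.35 ± 0.19 and the isomerase ECI2 at 0.24 ± 0.22, beside ACADL and PPARGC1A. Of 20 genes of synthesis and desaturation only 10 had a probe and 4 were tested. All 4 stood higher, with a median of 0.20 in the fit and, by array, of 0.89, -0.11, 0.41 and 0.16. FASN, the fatty acid synthase, stood at 1.11, 0.23, 0.68 and 0.66 on arrays 1 to 4, or 0.67 ± 0.19 in the fit (limma adjusted p = 0.999). The desaturase SCD stood at 0.20 ± 0.20, the citrate lyase ACLY at 0.20 ± 0.22 and their regulator SREBF1 at 0.12 ± 0.18. FASN was named for the smallest p of its list, and a ratio above 0 on 4 of 4 arrays was seen for 3.74% of tested probes. FASN stood at 0.23 with all arrays read as treated in Cy5.

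**Figure D5:**
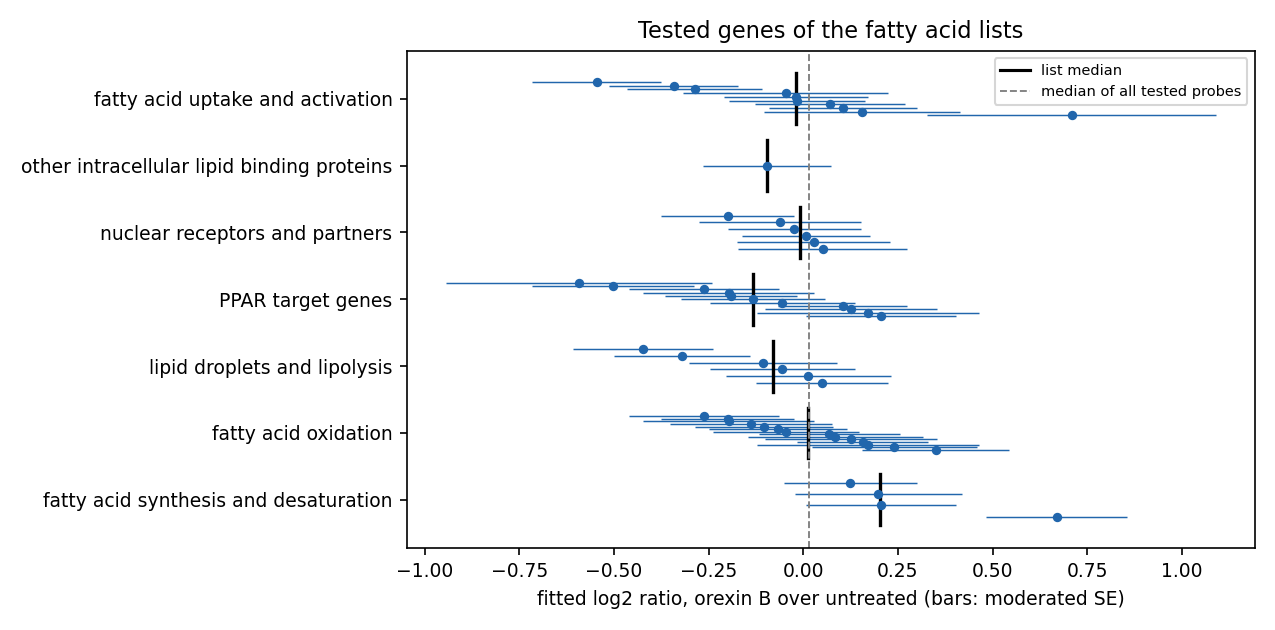
Fitted log2 ratio with its moderated SE for each tested gene of the 7 fatty acid lists; black bars are list medians and the dashed line is the median of all tested probes, 0.02. List medians run from -0.13 for PPAR targets to 0.20 for synthesis, and the lipid binding list holds 1 tested gene.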

How the data were processed

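The authors deposited scanner output of 4 arrays (design 026440), with spot intensities per channel as Agilent Feature Extraction wrote them, version 10.7.3.1 per the file headers, and a log10 ratio of Cy5 over Cy3 that the scanner software corrected for background and dye. Their deposited value table is on the log2 scale, treated over untreated, and matches that scanner ratio without centring, with medians of 0.18, 0.29, 0.01 and 0.03. How the table was made is not given in the sources used here, and its direction follows the per-array dye labels.

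From the median signals and local backgrounds, normexp (offset 50) and loess were run in limma 3.58.1 under R 4.3.3, without outlier spots, and spots of a probe were averaged. Levels were scaled between arrays by Aquantile. Limma's lmFit and eBayes fitted treatment and dye terms (2 residual degrees of freedom) to 13782 probes, Benjamini-Hochberg adjusted at 0.05, after a test on simulated data. P-values set a ratio against the spread between arrays left after the dye term. That spread was moderated by that of all tested probes (5.09 prior degrees of freedom). Through RefSeq accessions 6700 probes were named for 3029 genes, and a gene other than the 3 members stands by its brightest tested probe.

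The members, gene lists and rules were chosen with earlier results of these data known, and some genes of the lists are not reported here. Named genes are the members and their family, up to 4 tested genes with the smallest p per pathway list, the 2 brightest per marker list and the 5 closest to FABP5.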

Additional observations from a re-analysis of the deposited data

Results flagged for a closer look

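Of 74 sets of 4 array ratios or medians checked, 4 held a value far from the other 3 by Dixon's test, where chance gives about 1 in 20. SLC27A2 was high on array 2 (2.56), ACADL low on array 1 (-0.88), ECI2 high on array 1 (1.00) and CCR7 low on array 3 (-1.66). No member probe and no member mean was among them.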

How the results depend on the processing

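FABP5 ran from -1.73 to -1.11 with an array left out, and was -0.21 with all arrays read as treated in Cy5. It stayed below 0 in all 13 alternatives tried, which is no separate support. FABP5 was chosen for this ratio and was below 0 on every array, and the alternatives reuse the same arrays. FABP3 ran from 0.23 to 1.05 with an array left out and from 0.60 to 1.06 otherwise. FABP4 ran from -0.18 to -0.07 with an array left out and was -0.40 with median centring. Median centring in place of loess moved the median of all tested probes to 0.28, so its values are to be read against that shift. Limma called 0 to 15 probes for orexin B with an array left out (15 without array 2) and 0 otherwise, and 0 to 6 for dye with an array left out, against 6867 with median centring. The cause was not tested. Of list medians not given above, the sign also turned with all arrays read as treated in Cy5 for lipid droplets (0.11), oxidation (-0.095), adipocyte markers (0.35) and trophoblast markers (0.28).

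With all arrays read as treated in Cy5, signs turned for SLC27A2 (-0.56), LIPA (0.085), AIF1 (0.13), ABHD5 (0.13), GZMB (0.21), UCP2 (0.21), CRABP1 (0.23), CYP4A24 (0.26), ACSL1 (0.30), CYP19A1 (0.31), TYROBP (0.37), LIPE (0.41), NCOA1 (0.45), NKG7 (0.46) and ACTA2 (0.56). With median centring they turned for PECAM1 (0.010), CYP4A24 (0.064), ABHD5 (0.064), ACSL4 (0.091), PPARGC1A (0.10), CRABP1 (0.15), CYP19A1 (0.16), EPCAM (0.18), PLIN2 (0.21), NCOA1 (0.22), LIPE (0.22) and ACTA2 (0.31). NR1H3 was at -0.051 with the scanner's log ratio and with the authors' value table. With an array left out, values on both sides of 0 were reached by NR1H3 (-0.17 to 0.23), NCOA1 (-0.26 to 0.13), PPARG (-0.20 to 0.30), LIPE (-0.28 to 0.067), PLIN2 (-0.23 to 0.12), ECI2 (-0.021 to 0.50), ACLY (-0.016 to 0.41), PECAM1 (-0.73 to 0.050), EPCAM (-0.53 to 0.012), ACTA2 (-0.22 to 0.10), MYL9 (-0.0010 to 0.22) and CYP19A1 (-0.36 to 0.068). Other named genes kept their direction in the alternatives that gave a value.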
